A study of Mus musculus with 11 samples.

Results

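Transcripts of the STAT and SOCS families were compared between kidneys of lupus-prone and control mice. The 9 genes, chosen by symbol out of 25677 listed, were the transcription factors Stat2, Stat3, Stat4, Stat5a, Stat5b and Stat6 and the feedback inhibitors Socs1, Socs3 and Cish. RNA sequencing was performed on whole kidneys of female mice aged 21 weeks, each mouse giving 1 library. The Ctr group held 3 C57BL/6J mice, which lack the lpr mutation. The Lpr group held 4 MRL/lpr mice, a strain in which the lpr mutation of the death receptor gene Fas leads to an accumulation of lymphocytes and to a nephritis that resembles human lupus. The DNase group held 4 MRL/lpr mice that were injected daily into the peritoneum with DNase I, an enzyme that cuts DNA outside cells, from week 17 until the kidneys were taken. Whether the Lpr and Ctr mice received sham injections is not given in the sources used here. Both MRL/lpr groups share the strain and the Fas mutation and Ctr has neither, so strain and disease cannot be told apart in any comparison with Ctr.

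Cytokine receptors that lack a kinase of their own recruit Janus kinases (JAKs), which phosphorylate STAT proteins once the cytokine is bound. The STAT proteins then pair, enter the nucleus and switch on target genes, among them the SOCS genes, whose products block the receptor or the kinase and so close a feedback loop. Type I interferons act through Stat2, the interleukin (IL)-6 family through Stat3, IL-12 through Stat4, IL-2 and growth hormone through Stat5a and Stat5b, and IL-4 and IL-13 through Stat6. STAT activity is set by phosphorylation, which RNA levels do not measure.

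The libraries held between 33469858 and 38460873 counts on genes, and all 9 genes passed the filter on low counts in every comparison. Levels are given as CPM, the counts of a gene scaled to a common library total, after TMM scaling over the 11 libraries. The replicate Lpr 3 stood apart: its level relative to the other kidneys fell by 0.393 on the log2 scale with each doubling of gene length, against slopes between -0.0433 and 0.0775 in the other 10 kidneys. Where it moved a result of the 9 genes, the value without this kidney is given as well. Tubule, podocyte and endothelial markers were present in every kidney, with summed proximal tubule markers between 5110 and 11900 CPM. The 9 T cell markers had a summed level of 3.93 to 6.52 CPM in Ctr, 44.2 to 144 in Lpr and 48.4 to 85.5 in DNase, and none of them was at 0 in any kidney. In whole tissue, more cells of a type and more RNA per cell cannot be told apart.

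The promoters of the SOCS genes and of Stat2 are shown because several of them hold letters that match known binding patterns of this pathway. Promoter sequences came from RefSeq (build GRCm38.p6) and were found for 9 of 9 genes, with 12 start sites in all. They were searched from 250 bases before to 50 after the start for TTCNNNGAA and TTCNNNNGAA, the patterns that STAT pairs and Stat6 are known to bind. Both patterns read the same on either strand. The pattern GAAANNGAAA, bound by interferon regulatory factors and by the complex that holds Stat2, was searched on both strands after the promoters had been read. TTCNNNGAA was found in 2 of the 9 genes and in 8.3% of 32851 promoters of all genes, TTCNNNNGAA in 1 gene and 6.95%, and GAAANNGAAA in 3 genes and 3.44%. The 9 genes were counted once each over their 12 start sites, while the shares count single promoters, so the units differ. The sequence of the MRL/lpr strain was not examined. The bases before the start are written 5′ to 3′ on the strand of each gene, with matches in capitals. In Socs1 (chr16:10785537-10785786, minus strand) a pair of overlapping GAAANNGAAA matches begins at positions -83 and -77 from the start, and no TTC pattern was matched.
Socs1: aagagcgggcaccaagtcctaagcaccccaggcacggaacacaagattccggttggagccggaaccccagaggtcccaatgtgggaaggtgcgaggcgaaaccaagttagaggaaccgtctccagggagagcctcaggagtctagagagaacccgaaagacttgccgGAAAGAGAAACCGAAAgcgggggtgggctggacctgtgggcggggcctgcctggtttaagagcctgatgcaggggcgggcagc
In Socs3 (chr11:117969367-117969616, minus strand) the capitals mark the match of TTCNNNGAA at position -154.
Socs3: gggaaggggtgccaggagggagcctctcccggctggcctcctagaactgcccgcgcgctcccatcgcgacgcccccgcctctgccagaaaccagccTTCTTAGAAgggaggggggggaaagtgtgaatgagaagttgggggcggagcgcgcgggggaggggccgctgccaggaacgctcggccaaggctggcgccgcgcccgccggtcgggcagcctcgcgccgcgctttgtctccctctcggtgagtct
In Stat2 (chr10:128270248-128270497, plus strand) the capitals mark GAAANNGAAA on the opposite strand at -222, followed by TTCNNNNGAA at -210.
Stat2: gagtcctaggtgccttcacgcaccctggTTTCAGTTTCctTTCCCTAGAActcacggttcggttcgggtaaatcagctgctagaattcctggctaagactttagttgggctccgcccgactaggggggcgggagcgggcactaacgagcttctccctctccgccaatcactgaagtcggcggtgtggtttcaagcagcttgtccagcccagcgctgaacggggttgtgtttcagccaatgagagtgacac
In Cish (chr9:107296639-107296683, plus strand; 20 bases before and 25 after the start) a pair of TTCNNNGAA matches begins at the first base of the transcript and at position 12, a density that 0.457% of all promoters reach.
Cish: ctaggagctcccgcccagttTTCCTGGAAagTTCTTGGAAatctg
The remaining match was GAAANNGAAA at -97 from the second of the Stat4 starts. Stat3, Stat5a, Stat5b and Stat6 had no match in these windows. A match is a property of the letters and does not show binding.

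Between Lpr and Ctr kidneys, 3 of the 9 genes passed the test and all 3 were higher in Lpr: Socs1, Socs3 and Stat4. Among all 16074 genes tested, 10.2% passed in either direction and 7.27% were higher. A gene passes where the Benjamini-Hochberg adjusted p of edgeR's quasi-likelihood test is under 0.05 over all genes tested. With an absolute log2 fold change above 2 required as well, the same 3 genes remained, against 4.65% of all genes. Between DNase and Ctr, 5 of 9 passed and all 5 were higher, against 21.7% of 16100 genes in either direction and 13.1% higher. These were Socs1, Socs3, Stat4, Stat2 and Stat3, and Socs1 and Stat4 also exceeded a log2 fold change of 2 (4.56% of all genes). Both comparisons use the same 3 Ctr kidneys. The forest plot of fold changes shows the 3 comparisons side by side.

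**Figure D1:**
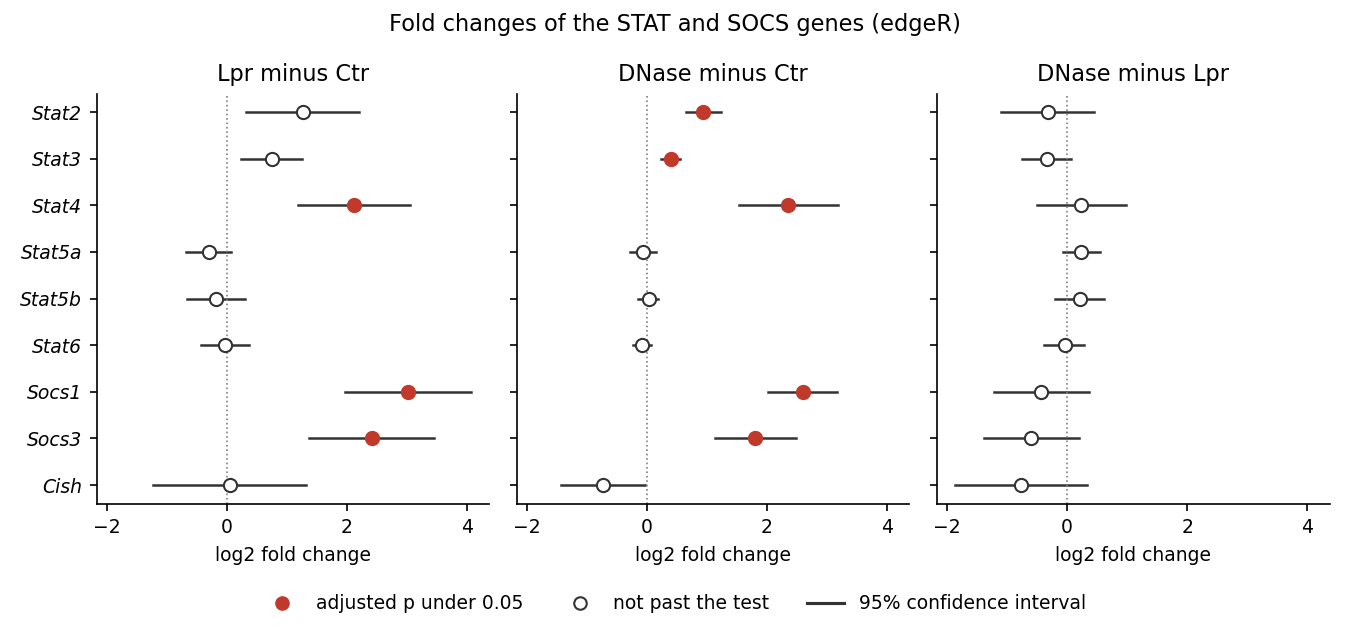
Log2 fold changes of the 9 genes in the 3 comparisons (horizontal axis), with 95% confidence intervals as lines and filled points for genes past the test in edgeR. Socs1 lies farthest to the right in both comparisons with Ctr, and no point is filled in DNase minus Lpr.

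Socs1, whose product binds and blocks the JAKs and restrains interferon signaling, showed the largest fold change of the 9 genes. Its level was 1.15, 1.69 and 1.11 CPM in Ctr 1 to 3, 18.6, 11.1, 7.25 and 5.83 in Lpr 1 to 4, and 6.26, 7.09, 10.6 and 7.77 in DNase 1 to 4. Every MRL/lpr kidney lay above every control, with Lpr 1 highest and Lpr 4 lowest. The log2 fold change was 3.03 ± 0.461 (SE) in Lpr against Ctr, or 8.15-fold (adjusted p = 0.00414), and 2.60 ± 0.256, or 6.05-fold, in DNase against Ctr (adjusted p = 0.000112). Socs1 passed in both comparisons under all 17 alternatives.

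Socs3, the inhibitor that acts at the shared IL-6 receptor chain gp130, held 7.32, 3.77 and 4.11 CPM in the Ctr kidneys. In Lpr 1 to 4 it held 24.8, 39.5, 32.7 and 11.2 CPM, and in DNase 1 to 4 it held 10.9, 18.9, 19.7 and 21.8. No MRL/lpr kidney reached down to the controls, and Lpr 4 and DNase 1 were the lowest of their groups. Socs3 rose by a log2 fold change of 2.42 ± 0.455 in Lpr (5.35-fold, adjusted p = 0.0108) and of 1.81 ± 0.300 in DNase (3.52-fold, adjusted p = 0.00226). The call in Lpr was lost without Ctr 2 (adjusted p = 0.0574) or without Ctr 3 (0.0568).

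Cish, an inhibitor induced by Stat5 in lymphocytes and other cells, did not pass. Its levels were 38.2, 85.9 and 47.9 CPM in Ctr, 119, 66.8, 23.8 and 27.2 in Lpr 1 to 4, and 52.7, 25.9, 32.4 and 26.7 in DNase 1 to 4. The 4 Lpr kidneys spanned a 4.97-fold range that enclosed all Ctr values, with Lpr 1 and 2 high and Lpr 3 and 4 low. The log2 fold change was 0.05 in Lpr against Ctr, with a 95% confidence interval of -1.22 to 1.33 (0.31 without Lpr 3), and -0.73 in DNase against Ctr (interval -1.43 to -0.03, adjusted p = 0.132). Without DNase 1, Cish passed as lower in DNase (log2 fold change -1.01, adjusted p = 0.0291).

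Stat4, which T cells and natural killer (NK) cells use to respond to IL-12, was the least abundant of the 9 genes and rested on 12 to 18 counts per Ctr kidney. It reached 0.322, 0.415 and 0.539 CPM in Ctr, 1.21, 2.69, 1.77 and 1.74 in Lpr 1 to 4, and 1.30, 2.39, 2.08 and 2.96 in DNase 1 to 4. All 8 MRL/lpr kidneys were above the controls, and the DNase and Lpr ranges overlapped. The log2 fold change was 2.12 ± 0.411 in Lpr (4.35-fold, adjusted p = 0.0124) and 2.36 ± 0.364 in DNase (5.13-fold, adjusted p = 0.00151). The call in Lpr was lost without Ctr 1 (adjusted p = 0.0747) or without Ctr 2 (0.0606). The T cell marker sum was, like Stat4, higher in both MRL/lpr groups than in Ctr. From Lpr to DNase the group mean went from 81.2 to 69 CPM for the sum and from 1.85 to 2.18 CPM for Stat4. The Lpr mean of the sum leaned on Lpr 2, with 44.2, 144, 67.4 and 69.4 CPM in Lpr 1 to 4. Lpr 2 was the highest and Lpr 1 the lowest Lpr kidney for both. In the DNase group, DNase 1 was lowest for both, while the highest kidney differed. The 5 NK markers summed to 0.543 to 1.23 CPM in Ctr, 3.52 to 10.7 in Lpr and 4.25 to 5.87 in DNase, and most of the sum in the MRL/lpr kidneys came from Eomes, which T cells also express (0.215 to 0.383, 2.48 to 9.28 and 3.47 to 4.72 CPM). Klrb1c differed by -0.13 on the log2 scale in Lpr without passing, and Ncr1, Klre1 and Klri2, each at 0 in at least 1 Ctr kidney, were too low to be tested there. The part of these cells in the level of Stat4 was not tested.

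**Figure D2:**
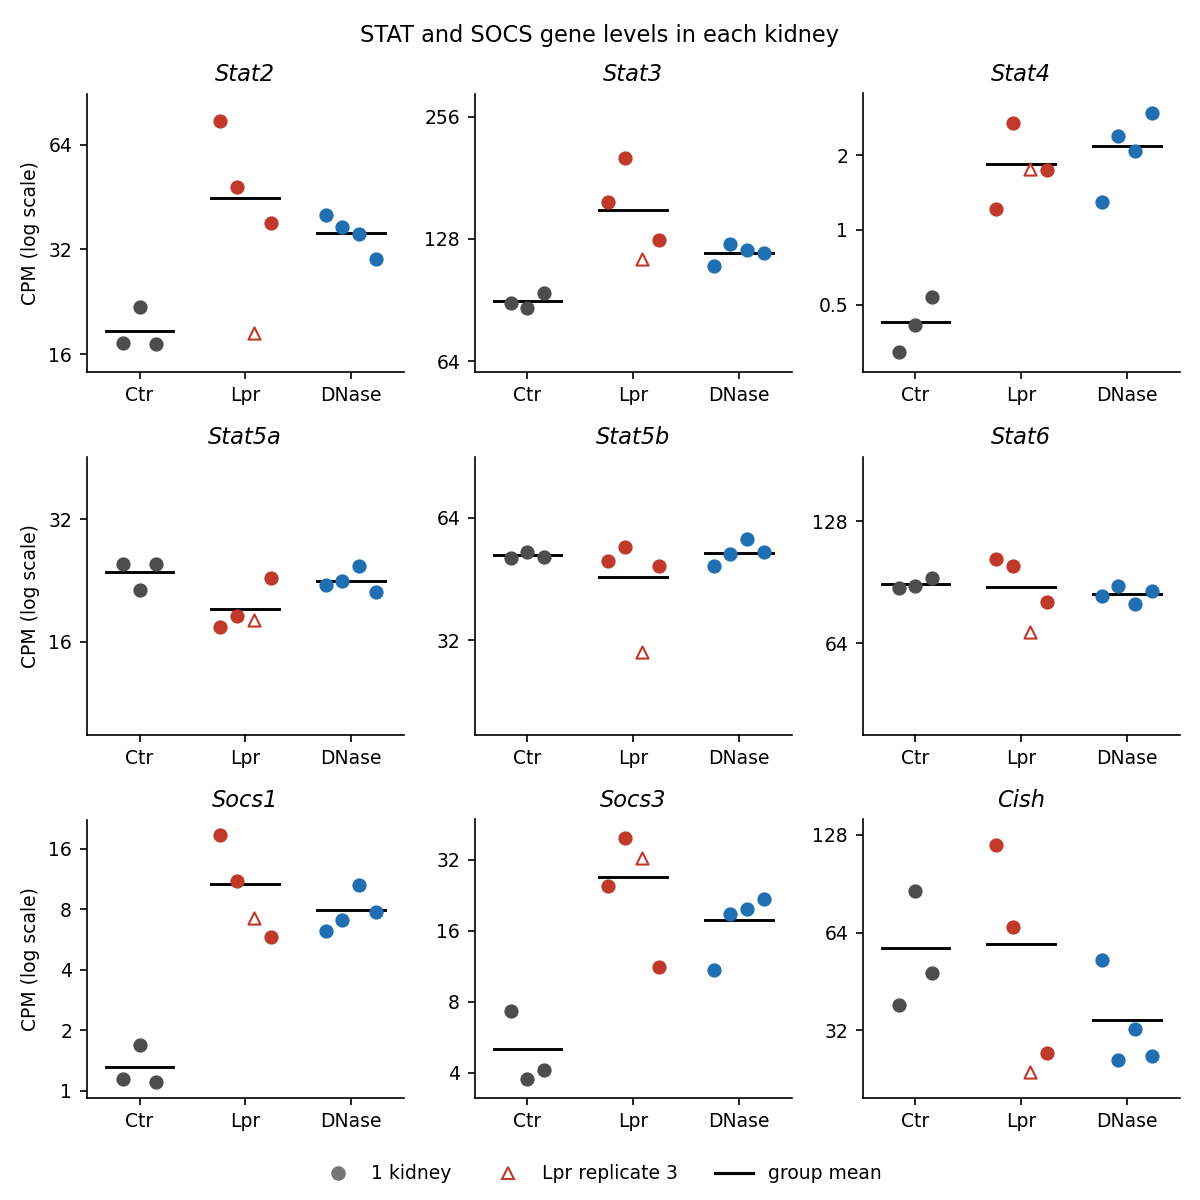
CPM of each gene (vertical axis, log scale) in the Ctr, Lpr and DNase kidneys, 1 point per kidney, with the group mean as a line and Lpr replicate 3 as an open triangle. Socs1, Socs3, Stat4 and Stat3 show no overlap between Ctr and either MRL/lpr group, while the open triangle is the lowest Lpr kidney for Stat2, Stat3, Stat5b, Stat6 and Cish.

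Stat2, which joins the complex that carries the type I interferon signal, held 17.2, 21.8 and 17.1 CPM in Ctr, 74.8, 48.4, 18.4 and 38.2 in Lpr 1 to 4, and 40.2, 37.2, 35.5 and 30.0 in DNase 1 to 4. Lpr 3 lay within the Ctr range, and the other 7 MRL/lpr kidneys lay above it. The log2 fold change against Ctr was 1.27 ± 0.412 in Lpr (adjusted p = 0.0997), and without Lpr 3 it was 1.53 and passed (adjusted p = 0.00553). In DNase, Stat2 rose by 0.94 ± 0.128, or 1.92-fold (adjusted p = 0.000743).

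Stat3, which carries the signal of IL-6 and its relatives, held 88.9, 86.7 and 94.0 CPM in Ctr, 158, 203, 114 and 127 in Lpr 1 to 4, and 110, 124, 120 and 118 in DNase 1 to 4. Both MRL/lpr groups lay wholly above Ctr. In Lpr the log2 fold change of 0.75 ± 0.221 did not pass (adjusted p = 0.0726), while without Lpr 3 it was 0.86 and passed (adjusted p = 0.0108). In DNase, Stat3 rose by 0.40 ± 0.0735, or 1.32-fold (adjusted p = 0.00409). For both Stat2 and Stat3, DESeq2 and a fit of all 11 libraries together gave a call in Lpr, so that 5 of 9 genes passed (15.3% of all genes with DESeq2). The fit of all 11 libraries gave no call for either gene in DNase (adjusted p = 0.127 for Stat2 and 0.222 for Stat3).

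Counted without a test, 4 of 9 genes were higher in every Lpr kidney than in any Ctr kidney (14.4% of all genes), and 5 of 9 in every DNase kidney (18% of all genes). The fifth was Stat2.

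Stat5a, Stat5b and Stat6 did not pass in either comparison with Ctr, and their intervals were narrower in DNase than in Lpr. Stat5a held 21.5 to 24.8 CPM in Ctr, 17.4 to 23.0 in Lpr and 21.2 to 24.6 in DNase, with log2 fold changes of -0.30 (interval -0.68 to 0.08) and -0.07 (interval -0.28 to 0.15) against Ctr. Stat5b was at 51.0 to 52.8 CPM in Ctr and 48.7 to 56.8 in DNase, and in Lpr it was 50.0, 54.3, 29.9 and 48.7, so that only Lpr 3 left the range of the other kidneys by a wide margin. The differences of Stat5b from Ctr were -0.17 in Lpr (interval -0.66 to 0.31), which became -0.02 without Lpr 3, and 0.03 in DNase (interval -0.14 to 0.19). Stat6, the factor of IL-4 and IL-13, held 87.7 to 92.5 CPM in Ctr, 68.4 to 103 in Lpr and 80.0 to 88.8 in DNase. Its log2 fold changes were -0.02 (interval -0.43 to 0.38, and 0.08 without Lpr 3) and -0.08 (interval -0.23 to 0.07).

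Stat5a and Stat5b encode closely related proteins and lie next to each other on chromosome 11 (GENCODE annotation of GRCm38, with Stat5b at chr11:100780731-100850724 on the minus strand, Stat5a at chr11:100859351-100885169 on the plus strand, 8626 bases apart). Their transcripts share 265 windows of 100 identical bases, 6.31% of those in Stat5a and 4.87% of those in Stat5b, where a read could come from either gene. Stat3 (chr11:100885098-100939540, minus strand) overlaps the far end of Stat5a by 72 bases on the opposite strand, and whether reads were counted by strand is not given in the sources used here. The ratio of Stat5a to Stat5b in FPKM, a level scaled by library total and gene length, was 0.845, 0.708 and 0.837 in Ctr, 0.604, 0.591, 1.05 and 0.821 in Lpr 1 to 4, and 0.785, 0.749, 0.752 and 0.698 in DNase 1 to 4. The Lpr ratios enclosed those of the other groups, and the only ratio above 1 was that of Lpr 3. The mean log2 ratio differed by -0.09 between Lpr and Ctr (two-sided exact permutation p = 0.8), by 0.00 between DNase and Lpr (p = 1) and by -0.09 between DNase and Ctr (p = 0.229). Lpr 3 moved these values more than any other single kidney, and without it the differences were -0.26 between Lpr and Ctr (exact permutation p = 0.2) and 0.17 between DNase and Lpr (exact permutation p = 0.286). With 3 against 4 kidneys the smallest p this test allows is 0.0571, and with 4 against 4 it is 0.0286. Stat6 and Stat2 both lie on chromosome 10, 609601 bases apart (chr10:127642986-127660957 and chr10:128270559-128292849, both on the plus strand). The other members lie at chr1:51987148-52107189 (Stat4, plus strand), chr16:10782240-10785536 (Socs1, minus strand), chr11:117966079-117970047 (Socs3, minus strand) and chr9:107296026-107302784 (Cish, plus strand).

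The comparison of DNase with Lpr asks whether the treatment changed these genes within the same strain. None of the 9 genes passed, and neither did any of the 15832 genes tested (0%), where the smallest adjusted p was 0.82. At an unadjusted p under 0.05 there were 886 genes (5.6%) and 0 of the 9, and DESeq2 called 23 genes (0.145%), 0 of the 9 among them. For each of the 9 genes the ranges of the groups overlapped, while 3.79% of all genes showed no overlap. The SOCS genes had the most negative point estimates: -0.77 for Cish (95% confidence interval -1.87 to 0.33), -0.60 for Socs3 (interval -1.39 to 0.20) and -0.43 for Socs1 (interval -1.21 to 0.36). Among the STAT genes the values were -0.34 for Stat3 (interval -0.75 to 0.07) and -0.32 for Stat2 (interval -1.10 to 0.45), against 0.24 for Stat4 (interval -0.50 to 0.99) and 0.24 for Stat5a (interval -0.07 to 0.55). All of these intervals include 0. Without Lpr 3 the estimates were -1.04 for Cish, -0.59 for Stat2 and -0.46 for Stat3, and these 3 genes had an unadjusted p under 0.05 (1618 of 16006 genes), and without Lpr 4, Socs3 and Stat5a did (1487 of 16015 genes), with adjusted p of at least 0.371 among the 9 genes.

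The kidneys of the Lpr group differed among themselves more than those of the DNase group. The coefficient of variation was larger in Lpr for 9 of 9 genes, with a median of 33.1% against 11.9%. Over all 16500 genes it was larger in Lpr for 84.2%, with medians of 29.7% and 12.4%. Without Lpr 3 it was larger in Lpr for 8 of 9 genes and for 59.9% of all genes. Lpr 1 was the highest Lpr kidney for Stat2, Stat6, Socs1 and Cish, and Lpr 2 for Stat3, Stat4, Stat5b and Socs3, as the heat map of single kidneys shows. Lpr 2 also held a summed level of 1730 CPM of 8 immediate early genes, against 134 to 402 CPM in the other 10 kidneys. These genes were listed as markers of tissue handling, and what raised them in Lpr 2 was not tested. Without Lpr 2 the 3 calls against Ctr were the same genes, Socs1, Socs3 and Stat4.

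**Figure D3:**
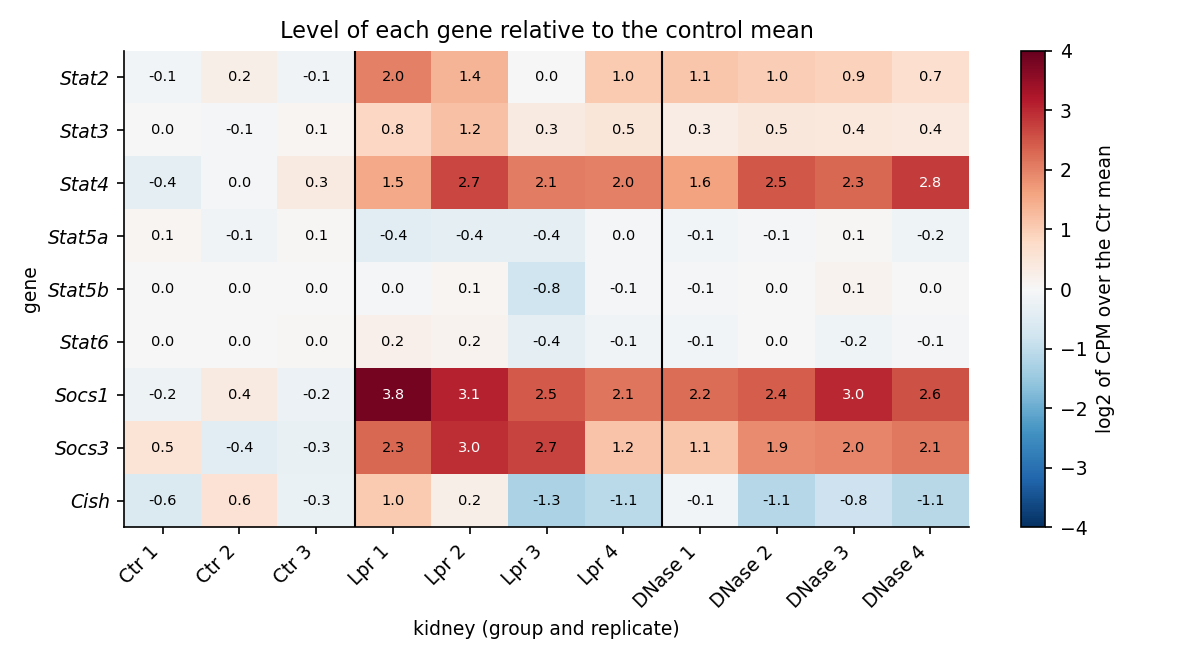
Log2 of the CPM of each gene (rows) over its Ctr mean in each of the 11 kidneys (columns), with red for higher and blue for lower levels and vertical lines between the groups. Socs1, Socs3 and Stat4 are red in all 8 MRL/lpr kidneys, while Cish is red in Lpr 1 and blue in Lpr 3 and 4 and in DNase 2 to 4.

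Per length, Stat6 was the most abundant of the 9 genes in Ctr, at 22.8 ± 1.09 FPKM (SD, n = 3), above Stat3 at 18.9 ± 1.23 without overlap. Cish followed with 12.8 ± 5.26, which overlapped Stat3, and then Stat5b with 6.28 ± 0.0704, Stat5a with 5.01 ± 0.526, Stat2 with 4.02 ± 0.463, Socs3 with 1.80 ± 0.720, Socs1 with 0.946 ± 0.205 and Stat4 with 0.128 ± 0.0342. Of these neighbours, only Stat3 and Cish and Stat5a and Stat2 overlapped in Ctr. In Lpr and DNase, Stat3 stood first, at 32.7 ± 9.72 and 26.6 ± 1.42 FPKM (n = 4 each), above Stat6 at 23.0 ± 4.88 and 23.0 ± 0.966, in 4 of 4 kidneys of each group. Socs3 at 9.80 ± 4.45 and Socs1 at 7.95 ± 4.28 FPKM stood above Stat5b and Stat5a in the Lpr means, although the Lpr ranges of all neighbours from Stat3 down to Stat5a overlapped. Stat4 stayed last in every group.

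**Figure D4:**
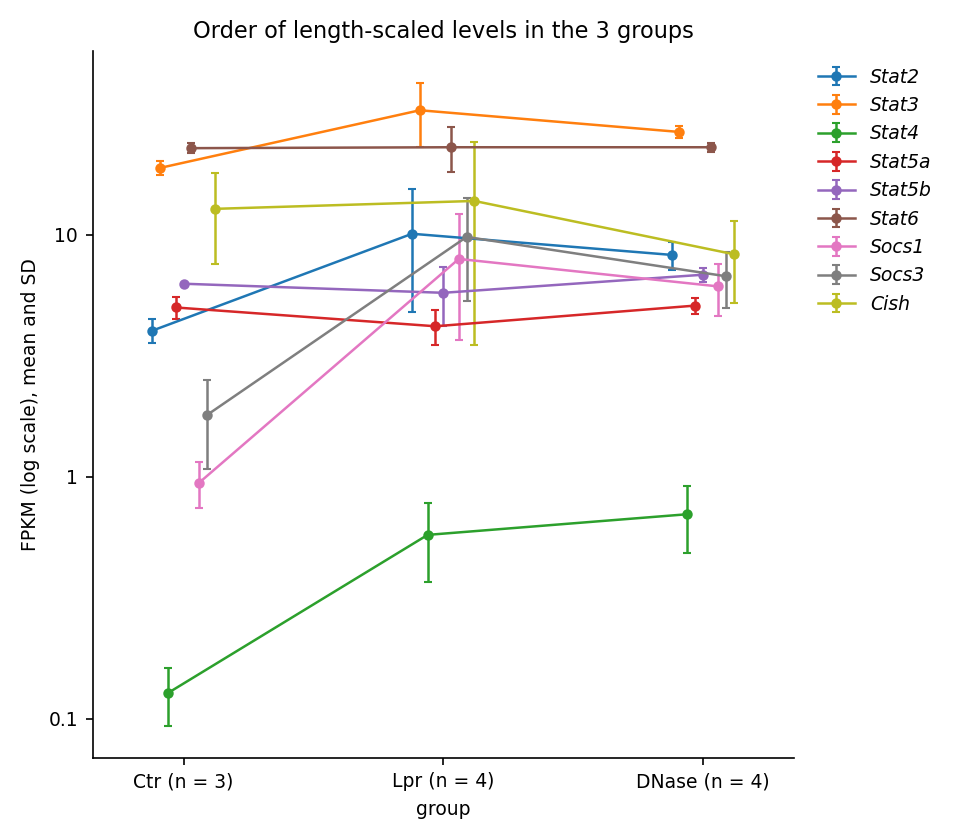
Mean FPKM of each gene (vertical axis, log scale) in the 3 groups, with SD as error bars. The lines of Stat3 and Stat6 cross between Ctr and Lpr, and those of Socs1 and Socs3 climb from the lower part of the order into its middle.

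The other genes of the pathway were taken from 14 lists by role, in which 98 genes were tested between Lpr and Ctr. Of these, 30 passed as higher, against 7.27% of all genes, and 3 as lower, against 2.92%. The median log2 fold change of the 98 was 0.73 against 0.03 for all genes. Among the 30, 7 genes had 3 counts or fewer in every Ctr kidney and passed the filter through Lpr alone. The lists were chosen with earlier results of these data known, so these shares are a description. Between DNase and Ctr, 44 of 94 passed as higher, against 13.1% of all genes, and 8 as lower, a share close to the 8.61% of all genes. The median was 0.35 against 0.002 for all genes, and 4 of the 44 passed the filter through DNase alone. Between DNase and Lpr 0 of 96 passed. The count in Lpr depended on single kidneys, with 41 of 94 past the test without Lpr 3, 22 of 91 without Lpr 2 and 17 of 100 without Ctr 1. The lists hold genes known from leukocytes, and the T cell markers (9 of 9), the macrophage markers (6 of 7) and the neutrophil markers (3 of 4 tested) also passed as higher in Lpr. The part of infiltrating cells in the lists was not tested.

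Among ligands of the gp130 family, all 7 tested had a positive fold change in Lpr. Of these, 3 of 7 passed as higher, against 7.27% of all genes, and 2 of 5 without Lpr 2. They were Ebi3 (log2 fold change 2.05), a subunit of IL-27, and Osm and Il27. Osm and Il27 lie near the detection limit, passed the filter through Lpr alone and were chosen after their values were seen. Osm, the gene of oncostatin M, had 1 count in each Ctr kidney and 13 to 55 in Lpr, at least 8.49-fold higher. Il27 had 0 or 1 count in Ctr and 4 to 19 in Lpr, at least 3.78-fold higher, where the limit is set at 3 counts per library and covers counting error only. Among their receptors, Csf3r, the receptor of the neutrophil growth factor G-CSF, rose by 3.97, Il27ra by 2.56 and Osmr by 1.39, while 6 of 9 did not pass. The ranges of Csf3r were 0.479 to 1.13 CPM in Ctr and 5.44 to 16.4 in Lpr.

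Receptors that use the common gamma chain passed as higher in 5 of 9 cases: Il7r by 3.80, Il21r by 3.57, Il2rb by 3.30, Il2rg by 2.54, and Il9r, which was outside the rule for names and had at most 2 counts in Ctr and 12 to 19 in Lpr. Il2rg encodes the gamma chain itself. Jak3, the kinase bound to it, was the only one of 4 JAK genes that passed in Lpr (log2 fold change 1.10, adjusted p = 0.0256). Of the JAK genes, none passed without Lpr 2, while 2 of 4 passed without Lpr 3 and 2 of 4 without both kidneys. In DNase against Ctr, 2 of 4 passed. Il12rb1, a receptor chain shared by IL-12 and IL-23, rose by 3.99 from 5 or 6 counts per Ctr kidney. Of the interferon and IL-10 type genes, 3 of 8 passed: Il10ra, by 2.51, and Ifng and Il10, chosen after their values were seen, at least 10.3-fold and 7.18-fold higher than 3 counts. Csf2rb, the shared receptor chain of GM-CSF, IL-3 and IL-5, rose by 2.97, Il3ra by 1.97, Csf2rb2 by 1.68 and Csf2ra by 1.25, while Il5ra, also outside the rule, fell by 2.18 on the log2 scale.

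Among the other inhibitors and phosphatases, Ptpn6, the gene of the blood cell phosphatase SHP-1, rose by 0.81, and 10 of 11 did not pass. Without Lpr 2, 0 of these 11 passed, while 3 passed without Lpr 3 and 2 without both kidneys. Of 4 other SOCS genes none passed in Lpr, with Socs7 at 0.01 and Socs4 at 0.40, although Socs4 rose by 0.46 in DNase against Ctr (adjusted p = 0.00262). Between DNase and Lpr the lowest list median was that of the STAT3 target genes (-0.71 against -0.02 for all genes), and it is a description. It was -0.58 without Lpr 2, -0.56 without Lpr 3 and -0.18 without both, a setting chosen after the data were seen. The STAT3 target genes were not the lowest list in every setting. Without Lpr 3 the STAT6 target genes were lower (-0.65). Without both kidneys the STAT6 target genes (-0.35) and the gp130 ligands (-0.23) were lower.

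Genes known as targets of each factor were counted the same way. Among STAT3 targets, 4 of 12 passed as higher in Lpr and 2 as lower. Lcn2, a secreted protein of injured tubules, rose by 3.92, the acute phase gene Saa3 by 3.71, Lrg1 by 2.41, and Bcl3, outside the rule, by 1.54. The fibrinogen chain genes Fgb and Fgg, the latter outside the rule, fell by 3.99 and 2.14. Without Lpr 2, only Lrg1 and Fgb of these 12 genes passed (adjusted p = 0.0124 and 0.0393), while without Lpr 3 the counts were again 4 and 2. Lcn2 held 17.5, 82.9, 152 and 12.3 CPM in Lpr 1 to 4 and 9.68 to 15.8 in DNase, so that Lpr 2 and Lpr 3, the kidneys highest in Socs3, were also highest in Lcn2. These are the kidneys with the high immediate early genes and with the deviating length slope, and the part of either in these levels was not tested. Without both, Lcn2 differed from Ctr by 1.77 (adjusted p = 0.0933). Saa3 did not follow the order of Lcn2, with 8.30, 4.43, 11.1 and 3.56 CPM in Lpr 1 to 4. Among STAT4 targets 3 of 6 passed as higher, Tbx21 by 2.68, Il18rap by 2.04 and Ifng. Among STAT5 targets only Foxp3, chosen after its values were seen, passed in Lpr (at most 3 counts in Ctr and 17 to 55 in Lpr), while Bcl2l1 differed by 0.11 and Igfals by -0.59 without passing. Among STAT6 targets 9 of 10 had a positive fold change in Lpr, with a list median of 1.36. Only Mrc1, a receptor of macrophages, passed as higher, by 2.85. The lists overlap in Ifng, Il12rb2, Il2ra, Il4ra and Pim1, and Csf3r is also a neutrophil marker.

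**Figure D5:**
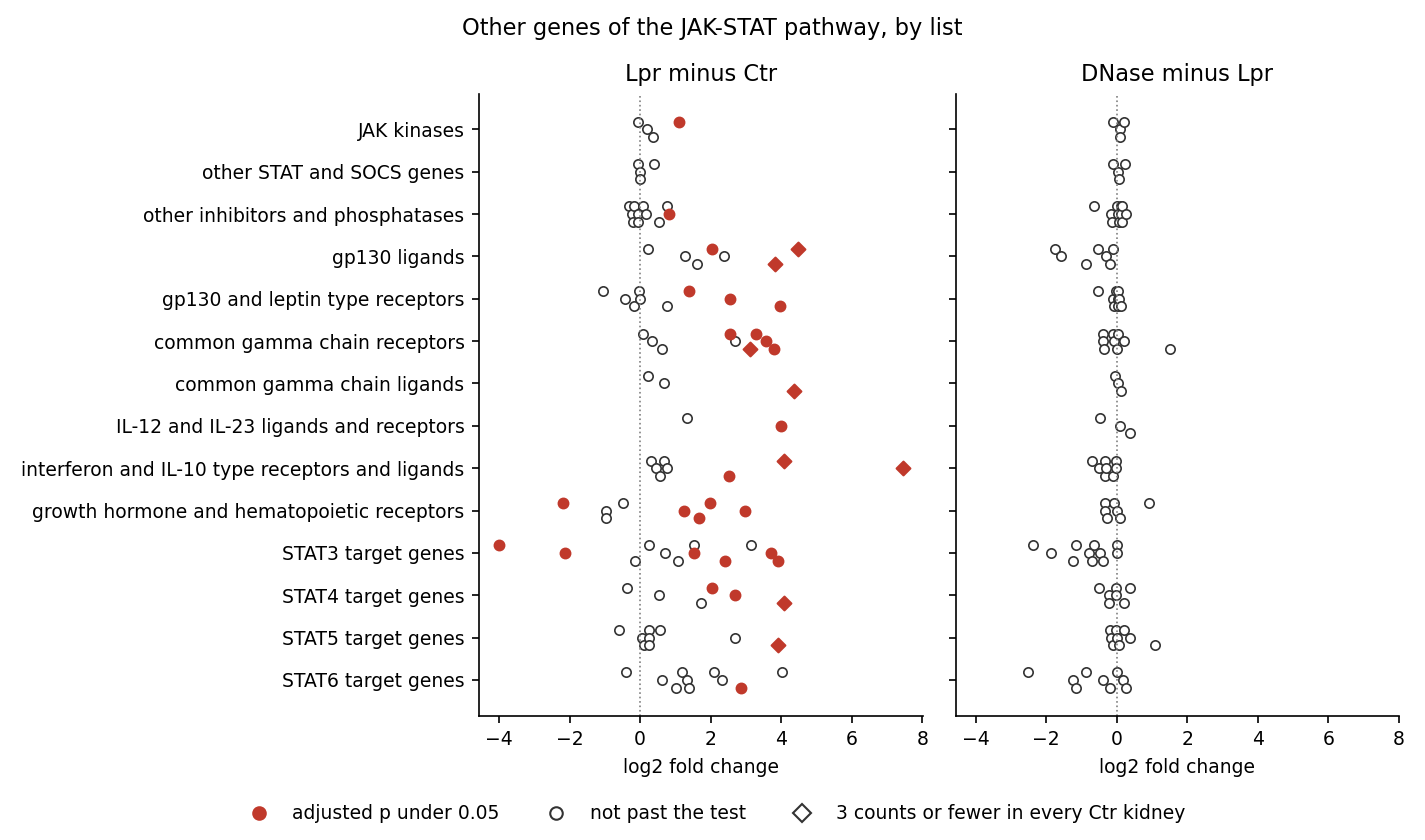
Log2 fold changes of the other pathway genes (horizontal axis) by list, in Lpr minus Ctr and in DNase minus Lpr, with filled symbols for genes past the test in edgeR and diamonds for genes with 3 counts or fewer in every Ctr kidney, whose fitted value is no bound. Filled symbols lie mostly to the right in Lpr minus Ctr, and none is filled in DNase minus Lpr.

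The genes whose levels followed each member most closely over the 11 kidneys were found by Pearson's r of log2 CPM, which is a description and reflects the group differences that many genes share. For Socs1 these were Cxcl9 (r = 0.986), an interferon-gamma induced chemokine, Irgm1 (0.982) and Serpina3g (0.982). For Stat2 they were Xdh (0.961), Eif2ak2 (0.957) and Oas3 (0.955), of which Eif2ak2 and Oas3 are interferon-induced. Stat3 was most like Arid5a (0.979), Gbp3 (0.971) and Axl (0.97). Socs3 was most like Tgfbi (0.989), Samd14 (0.969) and Cd300a (0.968), and Stat4 like Cd96 (0.972), a receptor of T and NK cells, Adgre4 (0.969) and Tnfrsf1b (0.967). Within groups, after the group means were subtracted, Cxcl9 (0.941) and Serpina3g (0.943) stayed among the 3 genes most like Socs1, Tgfbi (0.955) stayed first for Socs3, Cd96 (0.886) stayed first for Stat4, and Stat2 was most like Adar (0.984). Without Lpr 3 most of these within-group orders changed. The 3 genes most like Socs1 were then Ogfr (0.971), Ifi30 (0.969) and Tmed3 (0.969), Csf2rb (0.958) came before Tgfbi (0.954) for Socs3, Mtpap (0.959) was first for Stat4, with Cd96 no longer among its 3, and Klkb1 (0.961) came first for Stat2, followed by Glt1d1 (0.955) and Adar (0.954). Cish was most like Lmf2 (0.904), Zfp653 (0.901) and Plod1 (0.892), and its r with Socs1 and Socs3 over the 11 kidneys was 0.023 and -0.196, against 0.874 between Socs1 and Socs3. Within groups the order was the opposite, with 0.77 between Cish and Socs1 and 0.35 between Socs1 and Socs3 (0.743 and 0.484 without Lpr 3), while Cish and Socs3 stayed at -0.063 (0.095 without Lpr 3). For Stat5a, Stat5b and Stat6 the highest r was 0.924 (Tfap4), 0.979 (Ovol1) and 0.968 (Hps1).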

How the data were processed

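Kidney RNA of 3 Ctr, 4 Lpr and 4 DNase mice was measured by RNA sequencing, with groups taken from the sample labels. Gene counts were used as deposited by the authors, who name fastp and HTSeq with the mouse build mm10 and did not normalize them. FPKM, deposited by the authors beside them, scales each count by library size and gene length. No column was left unused (0), and 2 genes of the pathway lists are not reported here.

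Groups were compared in pairs, with the libraries of the 2 groups alone, by edgeR 4.0.16 (R 4.3.3) after filterByExpr and TMM scaling. The study's methods name DESeq2, run here as an alternative (version 1.42.0), and limma 3.58.1 was used on log2(FPKM + 1) and log2(FPKM + 0.1) at a mean FPKM of at least 0.5. The threshold for passing was a Benjamini-Hochberg adjusted p of 0.05. The fold threshold of the study (absolute log2 fold change above 2) was an alternative. Other alternatives changed the scaling, the filter (none, or at least 1 CPM in 3 libraries), the robust fit, the libraries in the fit or a replicate block, and left out each library in turn. Log2 CPM used a prior count of 2. The ratio of Stat5a to Stat5b was compared by an exact permutation test over kidneys, two-sided.

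The members and lists were chosen with earlier results of these data known. Besides the 9 members, the rule named up to 4 genes per list that passed between Lpr and Ctr with a mean of at least 1 CPM, those with the largest fold change, or otherwise up to 2 with the highest mean FPKM, and the 3 genes most like each member. Gene positions came from GENCODE, promoters from RefSeq, both on GRCm38. No pair of kidneys of a group agreed within sampling noise (lowest chi-square per degree of freedom 16.5, highest 366). The procedure was tested on simulated data. At an absolute log2 fold change of 1 it recovered 8 of 50 changed genes between Lpr and Ctr. It recovered 19 of 50 between DNase and Lpr and 38 of 50 between DNase and Ctr. At a log2 fold change of 3 it recovered 49, 50 and 49 of 50, and at 4 it recovered 44, 47 and 42 of 50. The false calls were 5, 6 and 16. Changes near 1 could thus be missed, most often between Lpr and Ctr. The counts were simulated independently for each gene, so the recovery does not cover a kidney that deviates over many genes, as Lpr 3 did. Figures were drawn with matplotlib 3.10.9.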

Additional observations from a re-analysis of the deposited data

How the results depend on the processing

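With the fold threshold of the study, 929 genes passed between Lpr and Ctr, and 967 genes, 2 members and 20 list genes passed between DNase and Ctr, against 1639, 3493, 5 and 52 at the adjusted p alone. DESeq2 called 5 members and 2460 genes between Lpr and Ctr and 23 genes between DNase and Lpr. With all 11 libraries in a single fit, the calls were 5 members and 2555 genes in Lpr and 3 members and 1889 genes in DNase against Ctr. In limma on FPKM with either pseudocount, 18 list genes passed in Lpr against 33 with edgeR. When single kidneys were left out, the members past the test in Lpr ranged from 1 to 5, the list genes from 17 to 41 and all genes from 852 to 2824, with the lowest member count without Ctr 2 and the highest without Lpr 3. The causes were not tested. The log2 ratio of Stat5a to Stat5b in Lpr against Ctr ranged from -0.26 to 0.02, and it was 0.01 without Lpr 1, 0.02 without Lpr 2 and -0.26 without Lpr 3.

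Estimates near 0 changed sign in a few settings, none past the test. With total counts only, Stat6 was 0.02 in Lpr and Stat5a and Stat6 were 0.03 and 0.02 in DNase against Ctr. With limma, Cish was -0.11 and -0.14 in Lpr, Stat6 was 0.02 in DNase against Lpr, and Stat5a (0.02 and 0.03) and Stat6 (0.02) turned in DNase against Ctr. Left-out kidneys moved Cish in Lpr between -0.53 and 0.46, with values below 0 of -0.17 without Ctr 1, -0.07 without Ctr 3, -0.53 without Lpr 1 and -0.03 without Lpr 2. Stat6 in Lpr was 0.08 without Lpr 3 and 0.02 without Lpr 4, and in DNase against Lpr, where it ranged from -0.16 up, it was 0.04 without Lpr 1 and 0.01 without Lpr 2. Stat2 in DNase against Lpr ranged from -0.59 to 0.04, the latter without Lpr 1, and Stat5b in DNase against Ctr from -0.01, without DNase 3, to 0.07.

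The replicate numbers of the labels did not mark shared animals, and same-numbered kidneys deviated together with correlations between -0.277 and 0.159, so the numbers were not taken as a pairing. With the replicate block, 31 list genes and 1869 genes passed between DNase and Ctr, and Stat3 did not (adjusted p = 0.0574), leaving 4 members. The block left the members past the test in the other comparisons as 3 and 0. Counting error was largest for Stat4, which had as few as 12 counts in a kidney.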

Other observations

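The kidneys of the Lpr group split the members in different ways, which is given here as values with no test. Il6, the gene of the cytokine that induces Socs3 through Stat3, was chosen after its values were seen and had 0 counts in the 3 Ctr kidneys, 3, 23, 28 and 3 counts in Lpr 1 to 4, and 3, 8, 1 and 1 in DNase 1 to 4. Lpr 2 and Lpr 3, which had the highest Il6 counts, also had the highest Socs3 and the highest Lif, a relative of IL-6 with 39, 119, 96 and 24 counts in Lpr 1 to 4. Other genes of the same lists had a different order, with 21, 55, 17 and 13 counts of Osm and 295, 170, 370 and 125 of Saa3. Stat3 itself was lowest in Lpr 3, at 114 CPM. Lpr 2 is also the kidney with the highest immediate early genes (1730 CPM summed), and Lpr 3 the kidney with the deviating length slope (-0.393), and their part in these levels was not tested. Lrg1, a gene known as a target of STAT3, was at 11.6, 18.4, 27.1 and 11.8 CPM in the same 4 kidneys. Its range in DNase was 4.80 to 8.64 CPM, below every Lpr kidney, although the difference did not pass (log2 fold change -1.23, adjusted p = 0.82 in edgeR, and -0.68 without Lpr 2 and Lpr 3). Of all genes tested, 1.87% lay below every Lpr kidney in the same way. Of the tested list genes, Ifngr1 also lay wholly below Lpr, and Prlr and Pias2 wholly above it. The order of Stat2 and Socs1 was different, with Lpr 1 highest in both, at 4.00 and 14.1 times the Ctr mean, while Il6 in that kidney had 3 counts.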
